A study of Mus musculus with 2 samples.

Results

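Autonomic nerves set the pace and force of the heart through receptors that signal by G proteins, and 8 genes of this system were followed in embryonic right atria. These were the beta-adrenergic receptors Adrb1 and Adrb3, the alpha-1 adrenergic receptors Adra1a and Adra1b, the muscarinic acetylcholine receptors Chrm2 and Chrm3, the adenosine receptor Adora1, and Rgs4, a regulator of G protein signalling. They were chosen by name as receptors of noradrenaline, acetylcholine and adenosine with 1 of their intracellular regulators, and all 8 were found by Entrez identifier among the 21225 genes of the deposited table.

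Noradrenaline from sympathetic nerves acts on beta receptors, which couple through Gs to adenylyl cyclase, and the cyclic AMP formed speeds the pacemaker current and calcium entry. Acetylcholine from the vagus acts on the M2 receptor, which couples to Gi, lowers cyclic AMP and opens the GIRK potassium channel of atrial and nodal muscle, so that the beat slows, and the A1 adenosine receptor uses the same route. Alpha-1 and M3 receptors couple to Gq and phospholipase C beta, while RGS proteins speed the hydrolysis of GTP on G protein alpha subunits and so shorten the signal.

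The tissue was the right atrium at E11.5, with the sinus venosus muscle and venous valves attached. In it Shox2, a homeobox gene needed for the sinoatrial node, is normally active. An array was hybridized with RNA of Shox2-/- embryos, which lack the gene in all tissues, and 1 array with RNA of wildtype embryos. Each RNA was a pool of 6 embryos from 2 pregnancies in the CD-1 outbred line, so that embryos cannot be told apart within a pool. With 1 array per genotype there was no replicate, hence no difference below carries an error or a test, and differences in genotype and in dissection cannot be told apart. The arrays (Affymetrix Mouse Gene 1.0 ST) give 1 intensity per gene, read here as log2, and each log2 difference has the wildtype value subtracted from the Shox2-/- one. Probes differ in brightness, so that a higher signal of 1 gene than of another does not mean more transcript.

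As facts of the whole table, the median value was 7.50 on the Shox2-/- array and 7.49 on the wildtype array. The targeted gene Shox2 had 7.48 on the Shox2-/- array and 8.43 on the wildtype array, a log2 difference of −0.95, and the position of its probes relative to the deleted part was not known here. Genes were counted as higher at a log2 difference of 0.35 or more and as lower at −0.4 or less, and 2.91% of all genes were past either limit, 1.13% upward and 1.78% downward. The signal reached without expression was gauged from 1291 receptor genes of the nose (olfactory and vomeronasal). Their 95th percentile, called the odorant receptor level here, was 6.97 on the Shox2-/- array and 6.78 on the wildtype array. These genes had a median log2 difference of 0.12, with 5th and 95th percentiles of −0.089 and 0.31, and 83.7% of them were above 0, against 54.9% of all genes. These dim genes were thus mostly slightly higher on the Shox2-/- array, a measured shift to keep beside the values of dim receptors. The shift turned with level. With all genes split into 10 groups by mean level, the median difference was 0.12 in group 3, −0.021 in group 6 and −0.083 in group 10, the brightest. In group 10, 3.72% of genes were at −0.4 or below. Of the atrial muscle markers, all 8 were above the odorant receptor level on both arrays, with differences of −0.12 (Nppa) to 0.17 (Myh6) and a summed linear signal of 34752 on the Shox2-/- array and 34085 on the wildtype array. None of 6 endothelial and 5 epicardial markers was past a limit, with medians of −0.0097 and 0.18.

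Chrm2 was the only 1 of the 8 genes past a limit. Its value was 7.43 on the Shox2-/- array and 7.84 on the wildtype array, which is a log2 difference of −0.42, or 25.2% less signal. The remaining 7 genes lay between −0.24 and 0.18, inside the range from −0.30 to 0.26 that held the central 90% of all genes. That range spans all levels. Within its own group of genes by mean level, Chrm3 (−0.24) lay below the 5th percentile, −0.19. So 1 of 8 genes was past a limit where 2.91% of all genes were, a count too small to be read as a property of the group. Among the 14648 genes whose higher value lay above the odorant receptor level, 3.66% were past a limit, 1.19% upward and 2.46% downward. Of the 8 genes, 5 were higher and 3 lower on the Shox2-/- array, with a median difference of 0.060, against 0.021 over all genes. Once the trend of the difference on the mean level was removed, 4 were higher and 4 lower, with a median of 0.0041.

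**Figure D1:**
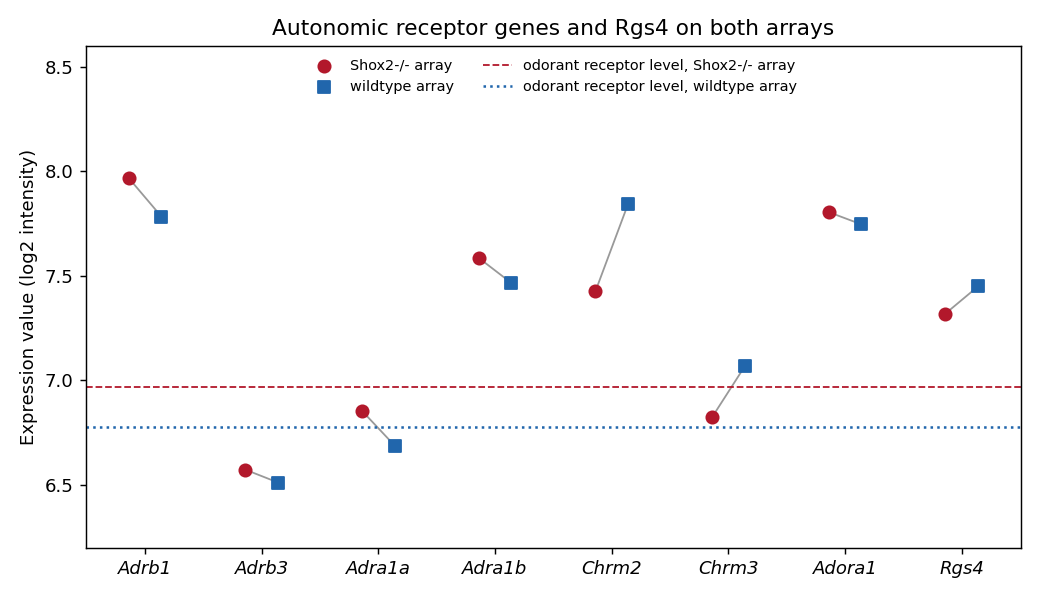
Log2 intensity of the 8 genes on the Shox2-/- array (red circles, left of each pair) and the wildtype array (blue squares, right), 1 array each, so that there are no error bars; the lines mark the odorant receptor level, 6.97 on the Shox2-/- array and 6.78 on the wildtype array. Chrm2 has the widest gap, at 7.43 on the Shox2-/- array and 7.84 on the wildtype array, while Adrb3 and Adra1a lie below the line on both arrays.

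The muscarinic receptors were the members with the lowest differences. Chrm2 (Entrez gene 243764) encodes M2, the receptor through which the vagus slows the node, and only 334 of 21225 genes had a more negative difference, or 1.58% counting Chrm2 itself. It was above the odorant receptor level on both arrays and stayed past −0.4 with the trend removed (−0.42) and after a further quantile normalization (−0.40). In pooled tissue, fewer cells that make a transcript and less of it per cell cannot be told apart. Among 8 sinoatrial node markers, Isl1 was at −0.42 and Smoc2 at −0.38 beside Shox2 itself, and the other 5, among them Hcn4, Tbx3 and Tbx18, lay between 0.0079 and 0.17. The study names Isl1 a direct target of Shox2 and found Hcn4 and Tbx18 still present in the Shox2-/- node. Among 6 cushion mesenchyme markers, 4 were at 0.35 or above, where 1.13% of all genes were, while Sox9 was at −0.27 and Postn at −0.046. The summed signal of the 6 was 2845 on the Shox2-/- array and 2388 on the wildtype array. The part of these cell types in the Chrm2 value was not tested.

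Chrm3 (Entrez gene 12671) encodes M3, the Gq-coupled receptor best known from smooth muscle and glands. It had 6.82 on the Shox2-/- array, below the odorant receptor level, and 7.07 on the wildtype array, above it. The log2 difference was −0.24, or 15.5% less signal, and −0.35 with the trend removed. Neither was past the limit of −0.4, and the place of both values against background depended on the percentile taken: at the 90th percentile of the odorant receptor genes both were above it, and at the 99th both were below. Of 6 smooth muscle and pericyte markers 5 were above 0, and Myh11 was at −0.34.

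The remaining muscarinic receptors had positive differences. Chrm1, a Gq-coupled receptor known mainly from brain, had 7.55 on the Shox2-/- array and 7.14 on the wildtype array, and its difference of 0.41 was past the upper limit, at rank 116 from the highest. With the trend removed it was 0.36. Chrm1 was above the odorant receptor level on both arrays, although its wildtype value was below the 99th percentile of those genes, 7.15. Of the 1291 odorant receptor genes, 34 were at 0.35 or above. Chrm4, which couples to Gi like M2, was at 0.19, and Chrm5 was at 0.15 and below the odorant receptor level on both arrays. The 5 muscarinic genes therefore split into 2 lower and 3 higher ones, and their summed linear signal was 745.1 on the Shox2-/- array and 746.4 on the wildtype array.

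The stretch before the start of Chrm2 is shown because Chrm2 was the gene past the limit. Beside it are those of Chrm3, the other muscarinic member, and of Adrb1, the member with the highest difference. That of the upstream start of Adra1b is shown too, since among the 6 members with a window only Adra1b also held the letters marked below. Each is the 250 bases before an annotated start, 5′ to 3′ along the gene, from the RefSeq promoter table of GRCm38.p6, which matched 6 of the 8 genes with 8 windows. Capitals mark the palindrome AATT, which the study mutated in the SHOX2-bound oligonucleotides of the ISL1 intron, and the homeodomain core TAAT on either strand (ATTA on the printed one), which can overlap in TAATT.
Chrm2, chr6:36387834-36388083, plus strand: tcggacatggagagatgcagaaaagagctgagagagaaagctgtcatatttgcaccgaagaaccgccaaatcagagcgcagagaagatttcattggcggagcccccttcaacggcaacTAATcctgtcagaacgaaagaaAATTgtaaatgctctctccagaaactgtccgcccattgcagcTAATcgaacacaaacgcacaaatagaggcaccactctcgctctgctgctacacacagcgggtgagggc
Chrm3, chr13:10360804-10361053, minus strand: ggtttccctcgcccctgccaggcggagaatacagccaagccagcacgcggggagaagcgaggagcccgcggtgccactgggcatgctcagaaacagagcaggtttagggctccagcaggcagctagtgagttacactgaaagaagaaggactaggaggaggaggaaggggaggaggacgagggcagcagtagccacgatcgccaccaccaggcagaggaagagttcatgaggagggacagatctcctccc
Adrb1, chr19:56721867-56722116, plus strand: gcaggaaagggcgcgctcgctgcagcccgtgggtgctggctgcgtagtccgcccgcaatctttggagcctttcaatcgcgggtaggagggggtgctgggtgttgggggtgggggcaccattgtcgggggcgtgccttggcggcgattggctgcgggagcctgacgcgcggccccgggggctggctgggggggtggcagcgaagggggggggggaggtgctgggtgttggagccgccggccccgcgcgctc
Adra1b, chr11:43901238-43901487, minus strand: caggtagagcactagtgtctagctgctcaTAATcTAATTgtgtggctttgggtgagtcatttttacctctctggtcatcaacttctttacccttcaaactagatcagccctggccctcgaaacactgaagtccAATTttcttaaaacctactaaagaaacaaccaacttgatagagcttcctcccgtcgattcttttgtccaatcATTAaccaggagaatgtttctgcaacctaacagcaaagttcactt
The Chrm2 window held 1 AATT, 110 bases before the start, and 2 TAAT cores, 132 and 68 bases before it. The upstream Adra1b window held 2 AATT and 3 TAAT. The Chrm3 and Adrb1 windows held neither, nor did those of Rgs4, Adora1 and the second start of Adra1b. Of 32851 windows of this length over all genes, 47.1% held an AATT and 54.9% a TAAT on either strand, so that these letters are common. Base composition differed as well, with 50.0% G and C in the Chrm2 window, 61.2% in Chrm3, 74.0% in Adrb1 and 41.6% in the upstream Adra1b window. A match of letters describes the sequence and does not show binding.

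Among the adrenergic receptors, the members had differences of 0.061 to 0.18, none past a limit. Adrb1 (Entrez gene 11554), the main beta receptor of heart muscle, had 7.97 on the Shox2-/- array and 7.78 on the wildtype array. It was above the odorant receptor level on both, and its difference of 0.18, or 13.6% more signal, was matched or exceeded by 13.7% of all genes. Its direction stayed upward with the trend removed, at 0.21.

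Adrb3 (Entrez gene 11556), the beta receptor best known from fat tissue, had 6.57 on the Shox2-/- array and 6.51 on the wildtype array. Both values were below the odorant receptor level, so that its transcript was not distinguished from background, and the sign of its difference of 0.061 turned to −0.047 with the trend removed. Adra1a (Entrez gene 11549), a Gq-coupled receptor of vessels and heart muscle, also lay below that level (but above the 90th percentile on both arrays), with 6.85 on the Shox2-/- array and 6.69 on the wildtype array. Its difference was 0.17, or 0.055 with the trend removed. Adra1b (Entrez gene 11548), which couples to Gq as well, was above the level on both arrays, with 7.59 on the Shox2-/- array and 7.47 on the wildtype array. Its difference of 0.12 was matched or exceeded by 26.6% of all genes and changed little with the trend removed (0.10). Beta-1 and alpha-1B were thus the adrenergic members above the odorant receptor level, each with a slightly higher value on the Shox2-/- array.

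The adrenergic receptors outside the group included 1 past a limit. Adra2b, a Gi-coupled alpha-2 receptor, had 9.79 on the Shox2-/- array and 10.20 on the wildtype array, a difference of −0.41. It was no longer past −0.4 with the trend removed (−0.33) or after a further quantile normalization (−0.32). The alpha receptors Adra1d, Adra2a and Adra2c had differences of 0.18 to 0.21, and Adra2a and Adra2c lay below the odorant receptor level.

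**Figure D2:**
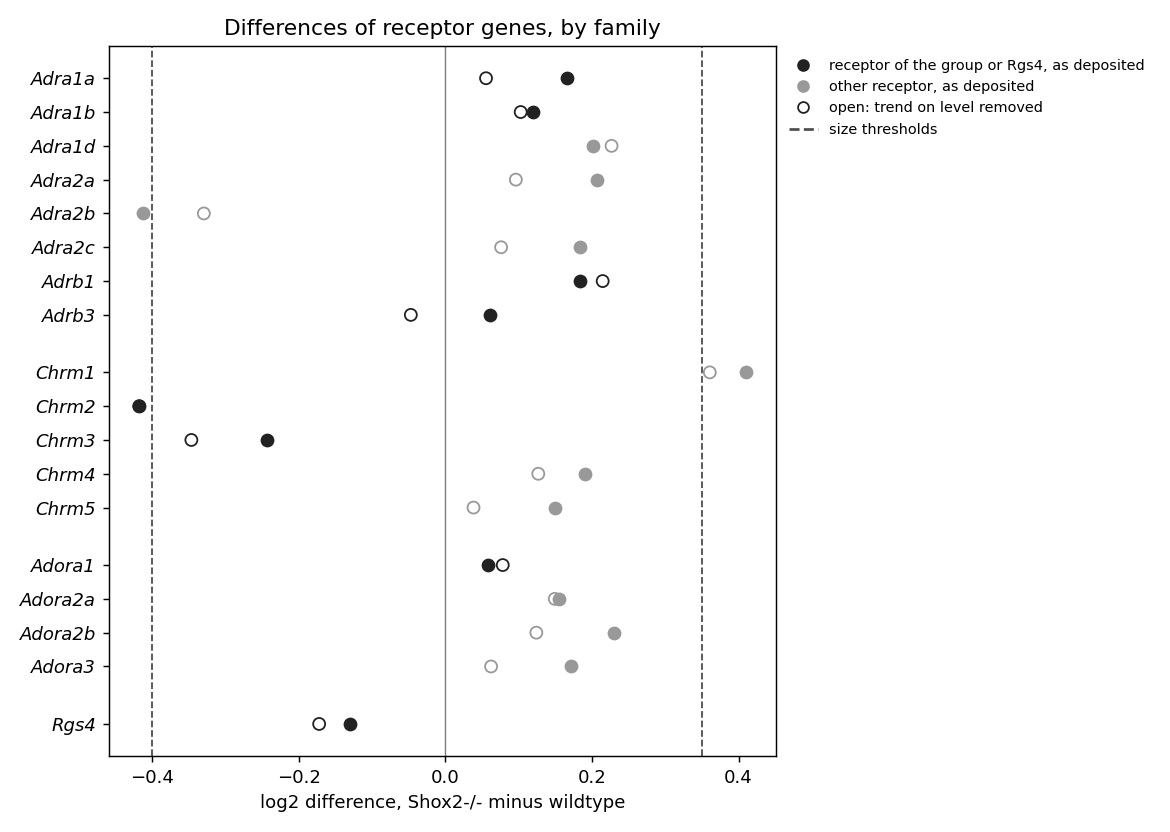
Log2 difference (Shox2-/- minus wildtype, horizontal axis) of the adrenergic, muscarinic and adenosine receptor genes described and of Rgs4, as deposited (filled) and with the trend on mean level removed (open); black marks the 8 genes and grey the other receptors, and dashed lines mark 0.35 and −0.4. Chrm2 and Adra2b lie at or past the lower line as deposited and Chrm1 past the upper, and Adra2b moves inside it with the trend removed.

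Adora1 (Entrez gene 11539) encodes the A1 receptor, through which adenosine slows the embryonic and adult heart. It had 7.81 on the Shox2-/- array and 7.75 on the wildtype array, both above the odorant receptor level. The difference of 0.059, or 4.15% more signal, was the smallest in size among the 8 genes and was 0.078 with the trend removed. The other adenosine receptors were also at positive values. Adora2a and Adora2b, which couple to Gs, were at 0.15 and 0.23, and Adora3 was at 0.17 and below the odorant receptor level on both arrays.

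Rgs4 (Entrez gene 19736), known from mouse sinoatrial node as a brake on vagal signalling, had 7.32 on the Shox2-/- array and 7.45 on the wildtype array. Both were above the odorant receptor level, although the Shox2-/- value was below the 99th percentile of the same genes. The difference of −0.13, or 8.64% less signal, was matched or undercut by 20.5% of all genes and was −0.17 with the trend removed. Rgs6, named here for its known role in the same brake, was at 8.20 on the Shox2-/- array and 8.24 on the wildtype array. Neither of these atrial regulators was near a limit.

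Of the 21 RGS genes 12 had a positive and 9 a negative difference, and Rgs18 alone was past a limit. Rgs18, an RGS gene of megakaryocytes and platelets, had 7.31 on the Shox2-/- array and 8.03 on the wildtype array, a difference of −0.72. Of 8 megakaryocyte and platelet genes, a list added after the value of Rgs18 was seen, 7 were measured and all 7 were lower. Their summed signal was 4294 on the Shox2-/- array and 5983 on the wildtype array, with Ppbp at −0.57, Gp9 at −0.56 and Pf4 at −0.56. Treml1, at −0.017, was nearest to 0 and turned to 0.049 with the trend removed. The part of these cells in the Rgs18 value was not tested. At the other end of the family Rgs8 was at 0.25, and Rgs10 had 9.87 on the Shox2-/- array and 10.01 on the wildtype array.

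**Figure D3:**
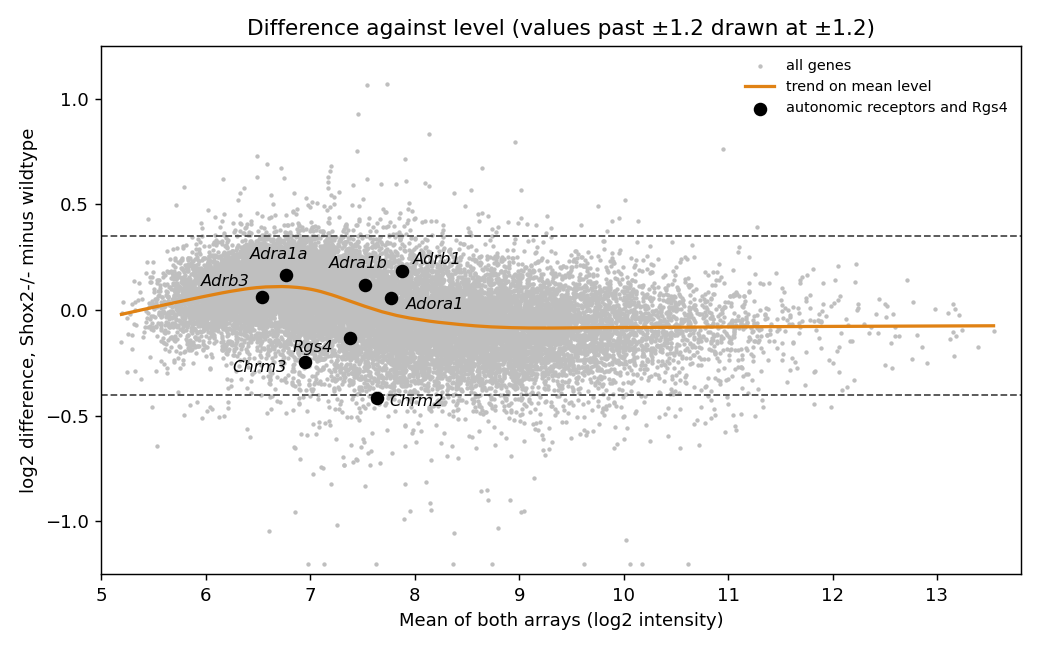
Log2 difference (Shox2-/- minus wildtype, vertical axis) against the mean log2 intensity of both arrays (horizontal axis) for all 21225 genes (grey), with the trend line (orange) and the 8 genes (black); dashed lines mark 0.35 and −0.4, and genes past ±1.2 are drawn at the edge. The trend lies above 0 among dim genes, where Adrb3 and Adra1a sit near it, and Chrm2 and Chrm3 lie furthest below it.

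Behind the receptors, the transducers were near 0. None of 13 G protein alpha genes and none of 15 beta and gamma genes was past a limit, with medians of −0.013 and 0.0095. Gnas, the Gs alpha subunit, had 9.89 on the Shox2-/- array and 9.90 on the wildtype array, and Gnai2, a Gi alpha subunit that opposes it, had 10.91 on the Shox2-/- array and 10.93 on the wildtype array. The lowest alpha gene was Gnai3 (−0.26) and the highest Gnao1 (0.24). Gnb1 had 12.03 on the Shox2-/- array and 12.00 on the wildtype array, and the beta and gamma genes ran between Gng5 (−0.27) and Gng7 (0.17).

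The enzymes of cyclic AMP were likewise inside the limits. Of 9 adenylyl cyclase genes 7 had a positive difference, with Adcy3 lowest (−0.019) and Adcy8 highest (0.22, below the odorant receptor level on both arrays), and Adcy6, a main cyclase of heart muscle, had 8.68 on the Shox2-/- array and 8.62 on the wildtype array. The 12 phosphodiesterase genes ran between Pde3b (−0.22) and Pde4c (0.20), and Pde4d had 8.65 on the Shox2-/- array and 8.57 on the wildtype array. Of the 6 protein kinase A subunits, Prkar2b came nearest to a limit, with 9.38 on the Shox2-/- array, 9.77 on the wildtype array and a difference of −0.39, while Prkacb was at 0.044. Prkar1a, a regulatory subunit, had 10.43 on the Shox2-/- array and 10.55 on the wildtype array. All 4 phospholipase C beta genes, the effectors of Gq, lay between −0.11 (Plcb1) and 0.042 (Plcb3).

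Genes that switch receptors off and channels that receptors act on were also inside the limits. Arrb1, a beta-arrestin that uncouples phosphorylated receptors, was the lowest of 7 receptor kinase and arrestin genes (−0.34), and Grk2, the main beta receptor kinase of the heart, the highest (0.094). Of 12 channel and calcium genes, Kcnj3, a GIRK subunit opened by M2 and A1 receptors, was lowest, with 8.54 on the Shox2-/- array and 8.66 on the wildtype array. Its partner Kcnj5 was at 0.065, the pacemaker channel Hcn4 at 0.067 and Hcn2 at 0.19, the highest of the list. Atp2a2, the calcium pump of the sarcoplasmic reticulum, had 11.78 on the Shox2-/- array and 11.63 on the wildtype array.

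**Figure D4:**
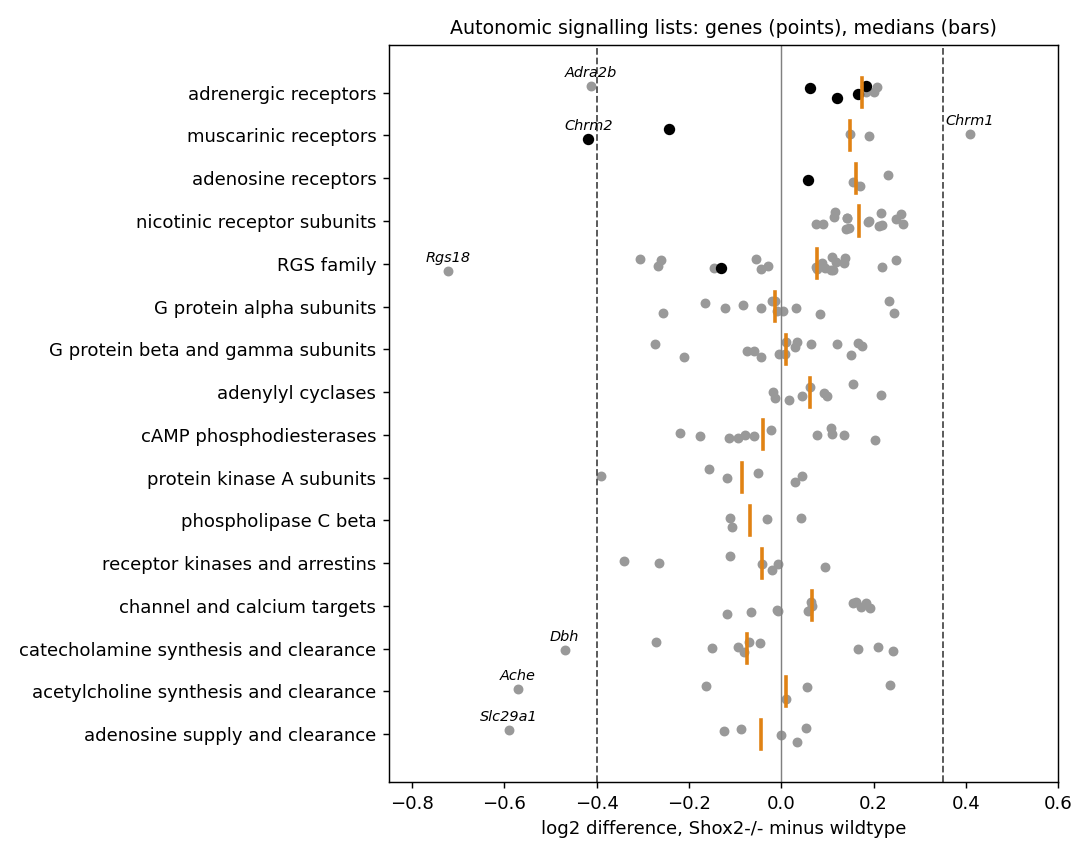
Log2 difference (Shox2-/- minus wildtype, horizontal axis) of each gene of the 16 autonomic signalling lists (points, spread vertically within a row for sight), with the 8 genes in black, list medians as orange bars, dashed lines at 0.35 and −0.4, and names for genes past a line. Only 7 of 153 genes are past a line, namely Adra2b, Chrm2, Chrm1, Rgs18, Dbh, Ache and Slc29a1, and nicotinic subunits lie above 0 throughout.

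Among genes that make or clear the transmitters, 1 of 10 catecholamine, 1 of 5 acetylcholine and 1 of 6 adenosine genes were past a limit. Each was past the lower limit, where 1.78% of all genes were, and the counts are too small to describe the lists. Dbh, which turns dopamine into noradrenaline and which mouse embryos need for heart function, had 7.04 on the Shox2-/- array and 7.51 on the wildtype array, a difference of −0.47. Th, the first enzyme of the same pathway, had 7.18 on the Shox2-/- array and 7.25 on the wildtype array. Dbh and Th were above the odorant receptor level on both arrays. On the Shox2-/- array both were below the 99th percentile of the odorant receptor genes, 7.37. Of the other catecholamine genes, Maoa, which breaks catecholamines down, had 7.68 on the Shox2-/- array and 7.95 on the wildtype array, and the transporter gene Slc6a2 was highest at 0.24, below the odorant receptor level on both arrays. The 11 markers of autonomic neurons and neural crest lay between −0.0075 (Phox2a) and 0.11 (Stmn2), with a summed signal of 2014 on the Shox2-/- array and 1947 on the wildtype array. Hand2 had the highest mean signal of the 11, with 8.93 on the Shox2-/- array and 8.83 on the wildtype array. With the trend removed 3 of the 11 were positive, with a median of −0.028. All 11 were above the odorant receptor level on the wildtype array, and Phox2a and Elavl4 were below it on the Shox2-/- array.

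Ache, the enzyme that splits acetylcholine and is also made by red blood cell precursors, had 8.33 on the Shox2-/- array and 8.91 on the wildtype array, a difference of −0.57. Slc29a1, a nucleoside transporter that carries adenosine and is also abundant in red blood cell membranes, had 9.34 on the Shox2-/- array and 9.93 on the wildtype array, a difference of −0.59. All 8 erythroid markers were lower, 5 of them at −0.4 or below, with a median of −0.47 and a summed signal of 29695 on the Shox2-/- array and 34691 on the wildtype array. All 8 fetal liver markers were lower too, with summed signals of 2633 on the Shox2-/- array and 5987 on the wildtype array. The part of blood and liver cells in the values of Ache, Slc29a1 and Adra2b was not tested. The other acetylcholine genes ran between Bche (−0.16) and Slc18a3 (0.24), with Chat and Slc5a7, which make acetylcholine and take up its choline, below the odorant receptor level on both arrays. Among the other adenosine genes, Adk had 9.72 on the Shox2-/- array and 9.85 on the wildtype array, and Entpd1 was highest (0.054).

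The nicotinic receptor subunits, through which acetylcholine excites ganglion cells and skeletal muscle, all had positive differences, where 83.7% of the odorant receptor genes and 54.9% of all genes did. The subunits lay between 0.076 (Chrna2) and 0.26 (Chrnd), with a median of 0.17 and none past a limit. Of the 16 subunit genes, 9 lay below the odorant receptor level on both arrays. With the trend removed 14 were positive, with a median of 0.086, against a median of 0.035 for the odorant receptor genes. Chrna7 had 7.40 on the Shox2-/- array and 7.21 on the wildtype array.

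Counted together, 7 of the 153 genes of the 16 lists were past a limit, 1 upward and 6 downward, which is 4.58% against 2.91% of all genes. The median difference of the 153 genes was 0.044, against 0.021 over all genes. Of the 17 adrenergic, muscarinic and adenosine receptors analysed, 3 (17.6%) were past a limit, 1 upward and 2 downward. That count is too small to be read as a property of these receptors. A positive difference was found in 14 of the 17, where 83.7% of the odorant receptor genes and 54.9% of all genes were above 0. On both arrays, 10 of the 17 lay above the odorant receptor level.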

How the data were processed

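RNA of pooled right atria was measured on 2 arrays, 1 per genotype. The deposited table holds 1 log2 value for each gene on each array, which the authors made in JMP Genomics 4.0 by log transforming and quantile normalizing perfect-match probe intensities and fitting log-linear models, with probes grouped by Entrez gene (custom CDF version 14). Quantile normalization forces like distributions of probe intensities on both arrays, so that a shift of all genes would not be seen. The gene values fitted from them were not equal in distribution, with highest values of 13.49 on the Shox2-/- array and 13.59 on the wildtype array. The log base was read from the range of the values, 5.09 to 13.6. The background correction and the genome build, both not given in the sources used here, are unknown, so that only the promoter windows, whose build is GRCm38.p6, have coordinates. Scanner files were not used here.

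Row identifiers equalled the platform's Entrez identifiers in all 20239 annotated rows, so that rows were named by identifier from the RefSeq annotation of GRCm38.p6. This named 529 further rows, 4 of the 8 genes among them (Adrb1, Adrb3, Adra1a and Adora1), and left 457 unnamed. No row had several symbols. Differences, ranks and counts were computed from the values as deposited, and the trend was a lowess of the difference on the mean level (span 0.3, 3 iterations), checked on simulated differences. The number of arrays limits the precision, and no test was run.

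The 8 genes and all lists were chosen with earlier results of these data known. Some genes of these lists are not reported here and are in no count of a list. Besides the 8, the text names other receptors, genes past a limit, the genes with the lowest and highest difference and the highest mean signal in each signalling list, and, chosen after their values were seen, Rgs6, Gnas, Th, Kcnj5, Hcn4, Chat and Slc5a7, with examples from the marker lists. Alternatives were centring on array medians, removal of the trend, a further quantile normalization, limits of 0.4 and of 1 both ways, and other percentiles of the odorant receptor level. Python 3.11.15, numpy 2.4.6, pandas 2.3.3, statsmodels 0.14.6 and matplotlib 3.10.9 were used.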

Additional observations from a re-analysis of the deposited data

How the results depend on the processing

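No paired analysis was possible because each genotype had a single array, and no replicate could be left out either. Chrm2 stayed past −0.4 under every scaling, and the count of 1 of 8 genes past a limit changed only with limits of 1 both ways, which left 0 of the 8 genes, 0 genes in each of the 16 signalling lists and 16 of all genes. With the trend on level removed, the differences were 0.21 for Adrb1, −0.047 for Adrb3, 0.055 for Adra1a, 0.10 for Adra1b, −0.35 for Chrm3, 0.078 for Adora1 and −0.17 for Rgs4. After a further quantile normalization they were 0.22 for Adrb1, −0.045 for Adrb3, 0.067 for Adra1a, −0.40 for Chrm2, −0.33 for Chrm3, 0.090 for Adora1 and −0.16 for Rgs4. Adrb3 thus changed sign under both, and 0 adrenergic receptors were past a limit under either. Centring on array medians gave 0.16 for Adra1a, −0.25 for Chrm3 and 0.055 for Adora1. Above the odorant receptor genes' 95th percentile lay 5 of the 8 genes on the Shox2-/- array and 6 on the wildtype array. At the 90th percentile 7 lay above on both arrays, Adra1a and Chrm3 now among them. At the 99th 4 lay above on the Shox2-/- array and 5 on the wildtype array, without Rgs4 on the Shox2-/- array and without Chrm3 on the wildtype array. Signal over background limits Adrb3, Adra1a and Chrm3 most. The trend removed together with limits of 0.4, chosen after seeing the data, left 1 of 8 genes past a limit.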
